A study of Mus musculus with 10 samples.

Results

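Hlx and the long non-coding RNA gene 4930488B22Rik lie tail to tail on mouse chromosome 1, and their differentially methylated regions (DMRs) ran in opposite directions between lymph nodes. Around the lincRNA, non-endothelial stromal cells (SCs) of mesenteric lymph nodes (mLN) were more methylated than those of peripheral, skin-draining lymph nodes (pLN). Around Hlx they were less methylated. The members were all DMRs that the authors' deposited tables assign to either gene as the nearest gene. There were 14 of 2132 DMRs, 9 of Hlx and 5 of 4930488B22Rik, and they held 296 of the 24182 CpGs with deposited values. Of these DMRs, 6 came from the comparison of mLN with pLN in specific pathogen-free (SPF) mice and 8 from the same comparison in germ-free (GF) mice. The 2 tables of SPF against GF, with 17 DMRs for mLN and 16 for pLN, held none.

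Hlx encodes a homeodomain transcription factor of the NKL class, related to H2.0 of Drosophila. It is known from the mesenchyme of the embryonic gut and liver, where it is needed for the growth of both organs, and from blood cell differentiation. 4930488B22Rik is annotated as a long intergenic non-coding RNA. Methylation of the C in a CpG is a stable mark copied at cell division. Low methylation is common at promoters and enhancers that are in use or poised, and methylation within a gene body or between genes can be high or low in either state.

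Whole-genome bisulfite sequencing was performed on CD45-CD31-Ter119-gp38+ SCs sorted from adult BALB/c mice. There were 3 libraries of mLN and 3 of pLN from SPF mice, and 2 of each node from GF mice. The sorting marker gp38 is also called podoplanin. The mLN drained small intestine, colon and caecum, and the pLN were inguinal and axillary or popliteal nodes. Groups follow the sample titles. The tissue labels of the pLN samples name a skin-draining node but also call it mesenteric, which conflicts with their titles and with the protocol. Per the methods, the SPF line listed on BALB/c was CD90.1, bred at the Helmholtz Centre. The GF mice were obtained by caesarean delivery at Hannover Medical School and kept there or at the Helmholtz Centre. The age ranges that the paper gives for GF and SPF mice overlapped only in part, so colony, age and housing cannot be told apart. The labels do not tie a library to an animal, so p-values measure the spread between libraries. The sort holds several types of SC, and a different mix of types and a different methylation within a type cannot be told apart in these bulk libraries. Only CpGs inside DMRs were given, so marker genes of the sorted cells could not be checked. Over all CpGs given, the library means lay between 48.2% and 52.2%. The number of reads behind each value was not used here, so single-CpG values carry an unknown counting error.

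The lincRNA is transcribed rightwards at chr1:184712497-184718989 and Hlx leftwards at chr1:184727140-184732619 (GRCm38), with 8150 bp between their 3′ ends. DMRs that overlapped were merged, which gave 2 regions for the lincRNA and 5 for Hlx. Region 1 (chr1:184715575-184718978, 102 CpGs) covered most of intron 2 and exon 3 of the lincRNA. Region 2 (chr1:184720001-184720979, 29 CpGs) lay just beyond its 3′ end. Regions 3 (chr1:184724110-184724415, 8 CpGs) and 4 (chr1:184724677-184725873, 33 CpGs) were intergenic and nearer to Hlx. Region 5 (chr1:184726509-184728400, 73 CpGs) ran from beyond the 3′ end of Hlx through the 3′ UTR and the coding part of exon 4 into intron 3. Region 6 (chr1:184728724-184728921, 6 CpGs) lay in intron 3, and region 7 (chr1:184733416-184734688, 45 CpGs) upstream of the Hlx start site. Every CpG of the reference sequence inside these 7 regions had a value in at least some libraries. Their density of 2.61 to 3.86 CpGs per 100 bp was above the median of 2.11 over all 1602 merged regions.

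**Figure D1:**
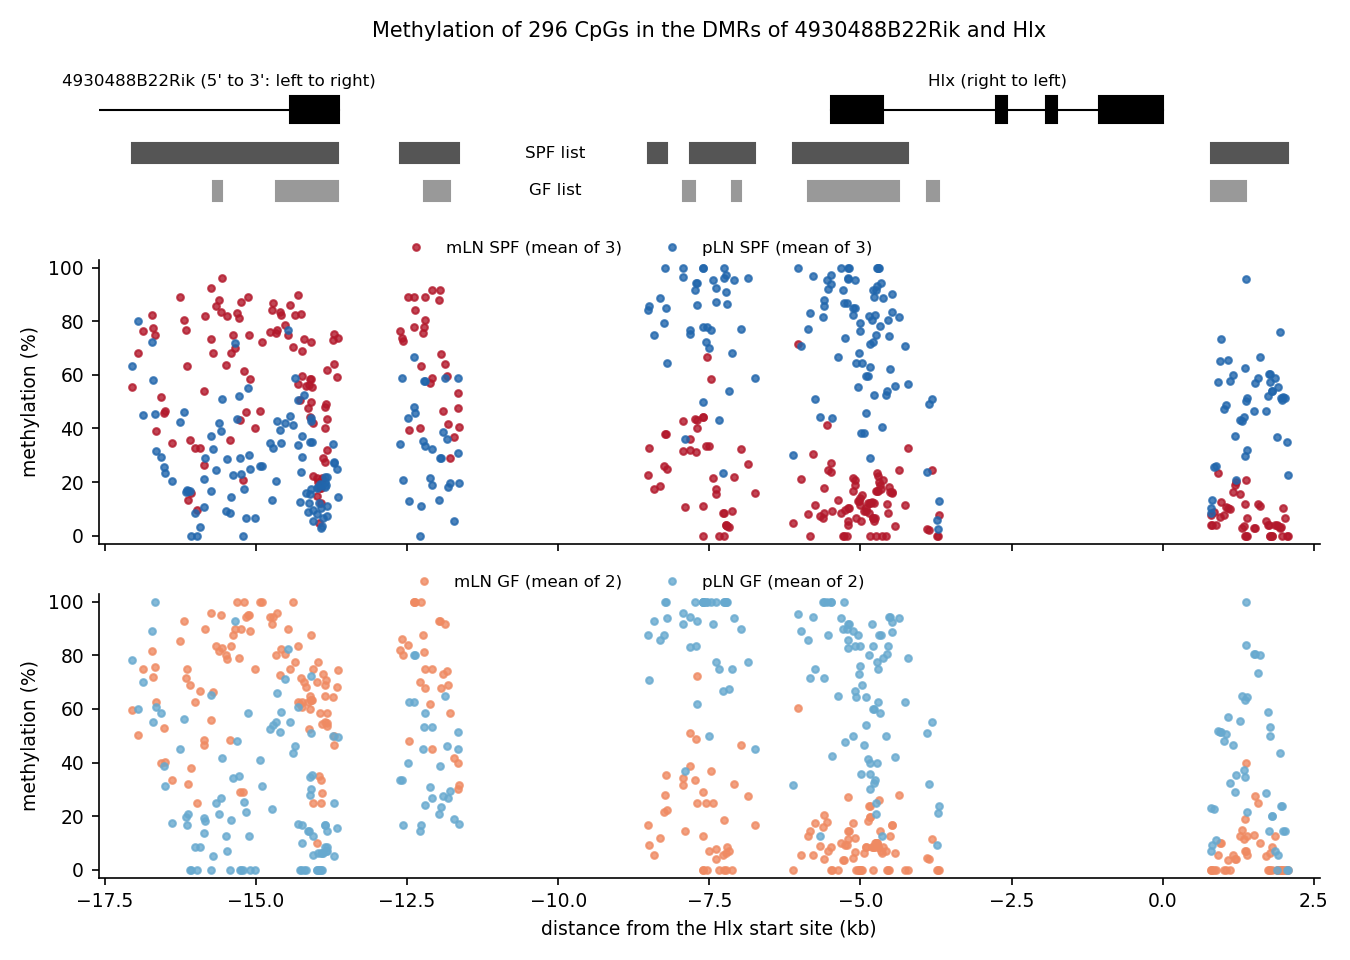
Methylation in percent of the 296 CpGs against distance from the Hlx start site in kb, with SPF libraries in the middle panel and GF libraries below, each point a group mean (3 SPF or 2 GF libraries per node). The top panel draws exons as black boxes, with the 5′ part of the lincRNA beyond the left edge, and the DMRs of the SPF and GF lists as grey bars. The mLN points (red and orange) lie mostly above the pLN points (dark and light blue) over the lincRNA and below them at Hlx.

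The turn of direction fell between the following windows of GRCm38, both written 5′ to 3′ on the forward strand with CpGs that have a value in capitals. They are shown because they hold the last CpGs on the lincRNA side (chr1:184720731-184720980) and the first on the Hlx side (chr1:184724110-184724359).
Last window on the lincRNA side: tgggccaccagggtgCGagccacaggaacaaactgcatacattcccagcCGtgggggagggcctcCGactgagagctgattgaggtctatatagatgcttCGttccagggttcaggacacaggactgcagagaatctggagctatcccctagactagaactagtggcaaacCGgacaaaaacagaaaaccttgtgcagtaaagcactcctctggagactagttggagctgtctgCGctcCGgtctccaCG
First window on the Hlx side: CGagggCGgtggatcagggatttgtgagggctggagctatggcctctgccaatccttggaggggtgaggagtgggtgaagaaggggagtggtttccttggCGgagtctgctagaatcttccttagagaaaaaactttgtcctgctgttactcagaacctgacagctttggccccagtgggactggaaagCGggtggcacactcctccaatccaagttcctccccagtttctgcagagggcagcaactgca
In the first of these windows the 8 CpGs differed between nodes by -5.43 to 31.0 percentage points (mLN minus pLN, over the 10 libraries). In the second, all 4 CpGs were lower in mLN, with differences of -71.6 to -56.5 points. No CpG in the 3130 bp between the end of one and the start of the other had a value, although the reference sequence holds 37 CpGs there.

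3 more windows show where the differences were large. The first surrounds the CpG of the lincRNA intron with the largest difference (chr1:184717294-184717453), the second holds the 5 neighbouring CpGs of region 4 with the largest mean difference (chr1:184725310-184725469) and the third lies in the coding part of Hlx exon 4 (chr1:184727770-184727970), where the forward strand is opposite to the coding one.
lincRNA intron 2: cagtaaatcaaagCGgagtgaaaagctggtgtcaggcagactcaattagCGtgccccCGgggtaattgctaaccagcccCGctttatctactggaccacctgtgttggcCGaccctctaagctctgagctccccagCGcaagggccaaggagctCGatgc
Region 4: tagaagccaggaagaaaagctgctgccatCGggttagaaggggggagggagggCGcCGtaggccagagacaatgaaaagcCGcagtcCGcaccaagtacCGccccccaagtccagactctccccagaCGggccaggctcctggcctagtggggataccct
Hlx exon 4: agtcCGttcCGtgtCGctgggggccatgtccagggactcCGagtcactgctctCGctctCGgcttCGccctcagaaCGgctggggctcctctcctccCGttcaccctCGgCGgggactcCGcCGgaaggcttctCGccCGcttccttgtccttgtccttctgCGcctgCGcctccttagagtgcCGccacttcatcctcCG
All 7 CpGs of the intron window were higher in mLN, by 20.2 to 74.3 points. All 7 CpGs of the region 4 window were lower in mLN, with a median difference of -87.4 points. The coding window is the most crowded, with 19 CpGs, and its median difference was -58.0 points.

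Within 1 library, the lincRNA and Hlx stood on opposite sides, and the order was turned between nodes. Averaged over its 131 CpGs, the lincRNA was methylated at 62.8%, 61.2% and 54.5% in mLN SPF and at 70.9% and 67.2% in mLN GF, against 30.6%, 28.0% and 27.2% in pLN SPF and 28.1% and 32.9% in pLN GF. The 165 CpGs of Hlx averaged 11.5%, 14.5% and 16.6% in mLN SPF, 11.5% and 10.7% in mLN GF, 68.7%, 67.1% and 67.6% in pLN SPF, and 64.2% and 64.0% in pLN GF. The level of the lincRNA minus that of Hlx was 37.9 to 59.3 points in the 5 mLN libraries and -40.4 to -31.1 points in the 5 pLN libraries. Because the DMRs were chosen on the difference between nodes in these libraries, these levels are a description and carry no test.

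Among the CpGs with a value, the direction changed once along the locus, apart from 4 CpGs. These CpGs lie in DMRs listed for a difference between nodes, so a shared sign within a DMR follows in part from the listing. The span holds 530 CpGs of the reference sequence, and the direction at those outside the DMRs is not known. Of the 131 CpGs on the lincRNA side, 127 were more methylated in mLN when all 10 libraries were averaged, and of the 165 on the Hlx side all 165 were less methylated in mLN. The 4 exceptions were the first CpGs of region 1, at 184715575 (-12.3 points) and 184715669 (-11.2 points), 1 CpG within it at 184717275 (-2.36 points), and 184720965 (-5.43 points) near the right edge of region 2. The last CpG before the turn, 184720979, stood 1990 bp beyond the 3′ end of the lincRNA. It was at 42.9%, 50.0% and 28.6% in mLN SPF, 30.0% and 33.3% in mLN GF, 42.9%, 16.7% and 0% in pLN SPF, and 14.3% and 20.0% in pLN GF, so the nodes overlapped. The first CpG after it, 184724110, stood 3030 bp before the 3′ end of Hlx and was at 30.0%, 25% and 12.5% in mLN SPF, 8.33% and 25% in mLN GF, 85.7%, 100% and 66.7% in pLN SPF, and 75.0% and 100% in pLN GF, with every pLN library above every mLN library.

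The difference was smaller at the right edge of region 2. The last 3 CpGs there differed by 10.6 points in SPF and -4.05 points in GF mice, while the 26 CpGs before them differed by 35.1 and 37.6 points. The authors' call itself set the edges of the DMRs, so this is a description and carries no test. In the GF libraries alone, and in 4 of the 10 sets that each left out 1 library, the best dividing point moved leftwards by at most 77 bp, to between 184720902 and 184720965 or between 184720965 and 184720970. The 4 sets were those without mLN SPF replicate 1, mLN GF replicate 1, pLN SPF replicate 2 and pLN SPF replicate 3. The first 3 CpGs on the Hlx side differed by -57.3 points in SPF and -73.3 points in GF mice.

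**Figure D2:**
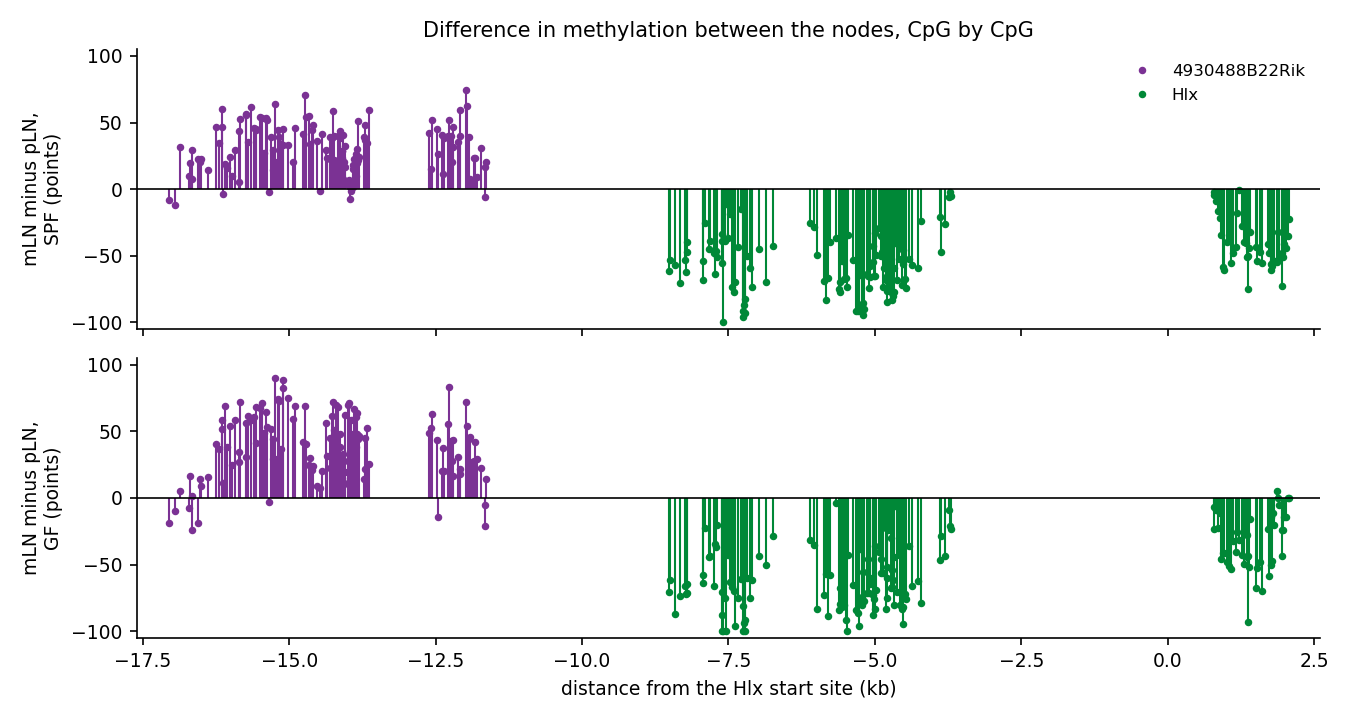
Difference in methylation between the nodes (mLN minus pLN, percentage points) at each of the 296 CpGs against distance from the Hlx start site in kb, from SPF libraries above and GF libraries below. Purple lines rise from 0 for most of the 131 lincRNA CpGs and green lines fall from 0 at nearly all of the 165 Hlx CpGs, with no values in the 3130 bp between them.

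Each list was then tested in the mice of the other housing, whose libraries the list had not used, with limma, a linear model that pools information on the spread across DMRs, over the whole list and Benjamini-Hochberg adjustment. The 6 DMRs of the SPF list were tested in the 4 GF libraries. Of all 806 DMRs of that list, 89.1% passed in the authors' direction at an adjusted p under 0.05, so passing alone does not set a DMR apart. Of the DMRs listed as lower in mLN 92.8% passed, and all 4 of Hlx were among them. Of those listed as higher in mLN 86.5% passed, and both of the lincRNA were among them.

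The differences of 3 Hlx DMRs were among the largest of the list. In the GF libraries, region 3 was at 18.4% and 19.1% in mLN against 83.7% and 95.8% in pLN, a difference of -71.0 points (SE 5.31, adjusted p 0.00041). The main part of region 4 (chr1:184724794-184725873) was at 22.9% and 16.1% against 81.7% and 92.1%, a difference of -67.4 points (SE 5.37, adjusted p 0.00044). Region 5 was at 7.74% and 12% against 72.3% and 67.8%, a difference of -60.2 points (SE 4.36, adjusted p 0.00041). Among the 333 DMRs listed as lower in mLN these differences ranked 4th, 8th and 18th by size. Region 7, upstream of Hlx, was at 7.24% and 5.20% against 42.5% and 35.0%, a difference of -32.5 points (SE 4.58, adjusted p 0.001) that ranked 161st. Region 7 was at low levels in mLN like region 5, and its pLN levels were below those of the other 3 Hlx DMRs.

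The lincRNA DMRs were nearer to the middle of the list. In the GF libraries region 1 was at 70.0% and 66.0% in mLN against 24.8% and 31.1% in pLN, a difference of 40.1 points (SE 4.53, adjusted p 0.00066). Region 2 was at 73.8% and 71.5% against 39.5% and 39.2%, a difference of 33.3 points (SE 4.04, adjusted p 0.00073). They ranked 90th and 188th of the 473 DMRs listed as higher in mLN. The median size over all 806 DMRs was 30.7 points. None of the 6 DMRs overlapped between nodes in the GF libraries, as was so for 93.7% of the list in the authors' direction. The exact permutation test (two-sided) gave p 0.333 for each, the smallest that 2 against 2 libraries allow.

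The 8 DMRs of the GF list were tested in the 6 SPF libraries in the same way. All 5 of Hlx and all 3 of the lincRNA passed in the authors' direction, as did 79.2% of the DMRs listed as lower in mLN, 85.8% of those listed as higher, and 82.3% of all 1293. The largest difference among these 8 DMRs was over the 3′ end of Hlx. There the DMR at chr1:184726745-184728256 was at 9.99%, 9.80% and 17.6% in mLN SPF against 73.7%, 77.7% and 80.1% in pLN SPF, a difference of -64.7 points (SE 4.56, adjusted p 8.5e-06) that ranked 5th of 689. The short DMRs in region 4 differed by -46.7 points at chr1:184724677-184724879 (6 CpGs, SE 4.91, adjusted p 2.6e-05) and by -59.2 points at chr1:184725487-184725636 (3 CpGs, SE 5.72, adjusted p 1.8e-05).

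Closer to the Hlx start site the differences were smaller. In region 7 the DMR at chr1:184733416-184733998 was at 7.81%, 3.34% and 19.0% in mLN SPF against 43.2%, 43.7% and 47.6% in pLN SPF, a difference of -34.7 points (SE 5.11, adjusted p 0.00016). Region 6, listed only in GF mice, was at 4.95%, 2.78% and 10.7% against 23.3%, 27.7% and 21.3%, a difference of -18.0 points (SE 4.52, adjusted p 0.0039). This was the smallest difference of the 14 DMRs in these tests and ranked 478th of 689. Among the GF libraries used for its listing, pLN replicate 2 was at 44.4% and replicate 1 at 19.7%.

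In the lincRNA, the short intronic DMR at chr1:184716911-184717054 (5 CpGs) was at 79.2%, 79.4% and 94.2% in mLN SPF against 45.6%, 29.7% and 38% in pLN SPF, a difference of 46.5 points (SE 5.89, adjusted p 6.8e-05). The DMR over the end of intron 2 and exon 3 (chr1:184717953-184718978, 49 CpGs) was at 52.3%, 55.2% and 50.7% against 28.7%, 25.4% and 22.4%, a difference of 27.2 points (SE 4.34, adjusted p 0.00025). In region 2 the DMR at chr1:184720407-184720831 (14 CpGs) differed by 34.1 points (SE 6.12, adjusted p 0.00053). All 8 DMRs had nodes that did not overlap in the SPF libraries, as did 81.4% of the list, and the exact permutation test gave p 0.1 for each, the smallest that 3 against 3 allow.

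**Figure D3:**
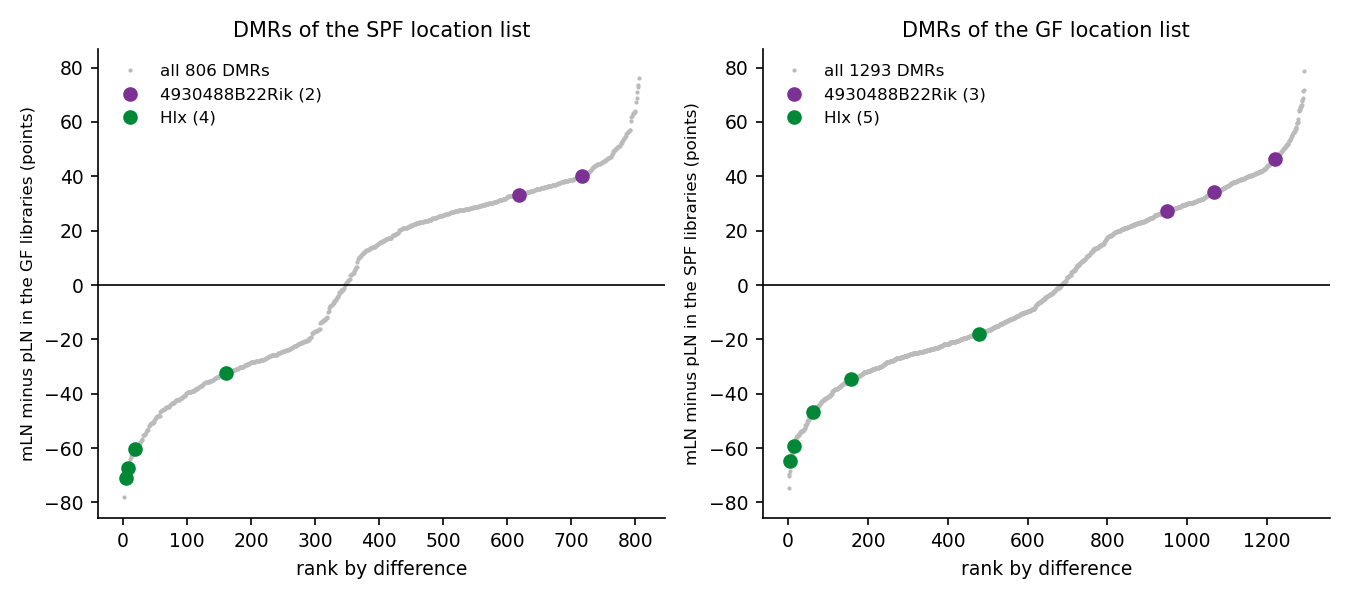
Difference in methylation between the nodes (mLN minus pLN, percentage points) of every DMR against its rank from most negative to most positive, for the 806 DMRs of the SPF list measured in the GF libraries (left) and the 1293 of the GF list measured in the SPF libraries (right). Green points are Hlx DMRs, of which the lowest are at -71.0 (left) and -64.7 points (right), and purple points are lincRNA DMRs, between 27.2 and 46.5 points.

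Single CpGs were also compared between the nodes in mice of the other housing. Of the 154 CpGs in SPF-listed Hlx DMRs with a value in all 4 GF libraries, 127 (82.5%) had every mLN library below every pLN library. For the lincRNA 96 of 128 (75.0%) had every mLN library above, and over all CpGs of the list the share in the authors' direction was 64.7%. In the 6 SPF libraries, 85 of 102 CpGs (83.3%) of the GF-listed Hlx DMRs and 29 of 68 (42.6%) of the lincRNA DMRs separated the nodes, against 48.6% of the whole list. The lincRNA share in this list depended on single libraries. It was 61.8% without mLN SPF replicate 3 (whole list 58.2%) and between 45.6% and 55.9% when each of the other SPF libraries was left out in turn (whole list 53.9% to 55.8%). CpGs in a DMR share reads and neighbours, so these shares were not tested against each other.

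Some Hlx CpGs were at or near the extremes of the scale. CpG 184725023, in region 4, was at 0% in all 5 mLN libraries and at 100% in all 5 pLN libraries, a difference of -100 points. The preceding CpG, 184725014, was uneven, at 100%, 33.3% and 0% in mLN SPF and at 100%, 33.3% and 100% in pLN SPF. The number of reads behind these values was not used. CpG 184725366, also in region 4, was at 0% in all mLN libraries and at 88.9% to 100% in pLN. In the 3′ UTR, CpG 184727342 was at 0% in 4 mLN libraries and at 7.14% in mLN GF replicate 2, and between 80.0% and 100% in pLN. The largest difference in the lincRNA, 74.3 points at 184717373 in intron 2, came from 77.8% to 100% in mLN and 0% to 33.3% in pLN. Over all 10 libraries, 108 of the 160 complete Hlx CpGs and 37 of the 128 complete lincRNA CpGs had nodes that did not overlap, against 33.2% of all complete CpGs, values that the listing itself used.

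The size of the difference varied with position within Hlx. Group means over the 13 CpGs of the 3′ UTR were 8.38% in mLN SPF and 9.62% in mLN GF against 85.3% in pLN SPF and 78.4% in pLN GF. Over the 33 CpGs of the coding part of exon 4 they were 12% and 9.10% against 73.6% and 58.8%. Over the 45 CpGs upstream they were 6.80% and 6.22% against 48.3% and 38.8%. The mLN level was therefore low in each of these stretches, and the pLN level was high at the 3′ end and intermediate upstream.

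Towards the start site the pLN SPF level was lower. In region 6 the 3 CpGs farther from the start site were at 33.7% to 50.6% in pLN SPF, and the 3 nearer ones at 4.76% to 8.89%. In pLN GF the spread was wider, with 22.5% and 69.6% at the farther CpGs and 16.9% and 19.2% at the nearer ones. In region 7 the 3 CpGs nearest to the start site were at 4.17% to 21.1% in pLN SPF, and the next 19 at 49.4% to 51.7%. In pLN GF the same stretches were at 18.0% and 8.33%, and at 55.8% and 41.8%. The 23 CpGs of region 7 farthest from the start site were at 37.0% to 64.5% in pLN SPF and at 34.7% and 32.9% in pLN GF. The weakest Hlx CpG, 184733416, was the first of region 7 and differed by -5.36 points, with all 10 libraries between 0% and 25%. Between regions 6 and 7 lie 4494 bp with 187 CpGs of the reference sequence, which include the start site, exons 1 to 3 and the 5′ UTR, and none of them was in a DMR. Of the 134 CpGs within 1 kb of the start site, 8 had a value.

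**Figure D4:**
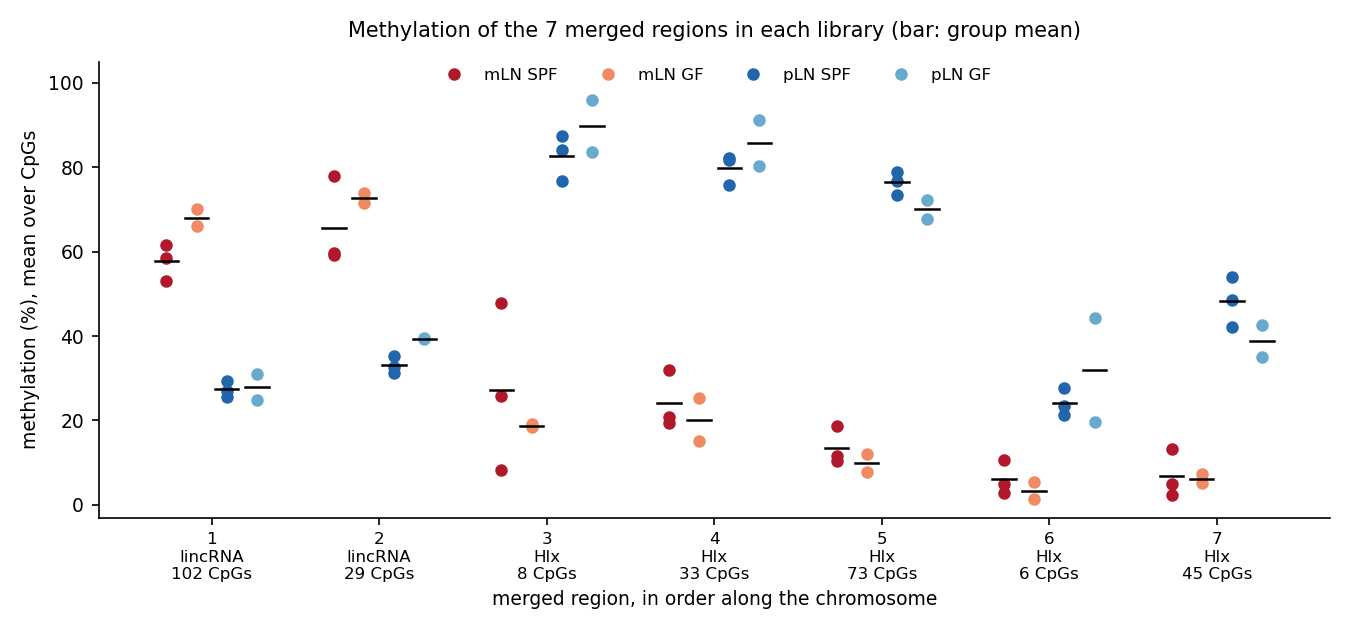
Methylation in percent, averaged over the CpGs of each of the 7 merged regions, in each library, 3 per SPF group and 2 per GF group, with bars for group means. Every mLN library is above every pLN library in regions 1 and 2 and below in regions 3 to 7, with the nearest approach in region 6 (10.7% in mLN SPF replicate 3 and 19.7% in pLN GF replicate 1).

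The spread between replicates was uneven. In region 3, which holds 8 CpGs, mLN SPF replicates were at 25.8%, 47.7% and 8.33% while mLN GF replicates were at 18.4% and 19.1%. In region 2, mLN SPF replicate 1 was at 77.9% and replicates 2 and 3 at 59.6% and 59.3%. In region 5, which holds 73 CpGs, the SD within groups was 2.75 to 4.58 points. In all 7 regions every mLN library lay on the same side of every pLN library. This was so for 78.6% of the 1602 merged regions, and the listing itself used these values.

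Housing was tested at the 7 merged regions over all 10 libraries, with node and housing in 1 limma model. No region passed, with adjusted p between 0.989 and 0.997, and none had an unadjusted p under 0.05. Among all 1602 regions, 0 passed (0%) and 72 had an unadjusted p under 0.05. The largest estimates were -6.69 points (SPF minus GF, SE 3.78) for region 2, -5.44 (SE 3.24) for region 1, 5.06 (SE 3.68) for region 7 and 5.03 (SE 2.98) for region 5. The SE was largest for region 3, at 6.53 points. These fits do not exclude housing differences of the size of the estimates, or larger, in either gene.

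The difference between nodes was not shown to depend on housing either. The interaction term (the difference between nodes in SPF minus that in GF) was largest for region 3 at 15.5 points (SE 12.7, adjusted p 0.711), and for region 1 it was -9.71 points (SE 6.0, adjusted p 0.646). It passed for none of the 7 regions and for 0 of 1602 (0%), of which 143 had an unadjusted p under 0.05. With SEs of 6.0 to 12.7 points, differences of this order could not be resolved.

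At single CpGs, 0 of the 288 that had all 10 values passed for housing, as did 0 of 23850 (0%). An unadjusted p under 0.05 was found at 19 of the 288 (6.60%) and at 1272 of the 23850 (5.33%). In the lincRNA the largest housing estimate was at CpG 184717691 in intron 2 (-34.2 points, SE 10.8, adjusted p 0.898), which was at 50.0%, 40.0% and 50.0% in mLN SPF and at 100% in both mLN GF libraries. In Hlx it was at CpG 184727880 in the coding part of exon 4 (38.8 points, SE 14.8, adjusted p 0.898), which was at 100%, 100% and 75.0% in pLN SPF and at 16.7% and 25% in pLN GF.

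Longer stretches in these parts also differed in level between housings, without a test of their own. Over the 43 CpGs of lincRNA exon 3, mLN SPF replicates were at 47.3%, 54.1% and 45.8% and mLN GF replicates at 58.8% and 62.5%. Over the 33 coding CpGs of Hlx exon 4, pLN SPF replicates were at 72.9%, 74.1% and 73.9% and pLN GF replicates at 62.5% and 55.0%. In neither stretch did the housing groups of that node overlap, but those of the other node did. Exon 3 of the lincRNA was at 26.7%, 23.5% and 19.1% in pLN SPF and at 14.0% and 23.4% in pLN GF. The coding part of Hlx exon 4 was at 8.33%, 5.00% and 22.6% in mLN SPF and at 6.75% and 11.4% in mLN GF. They were not the only such stretches. Over CpGs 23 to 45 of region 7, pLN SPF replicates were at 64.5%, 53.4% and 37.0% and pLN GF replicates at 34.7% and 32.9%, while the mLN groups overlapped. These stretches were chosen for mention after their values were seen, and the share of all stretches without overlap was not counted.

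No other gene within 500 kb of the Hlx start site had a DMR except Mark1, a kinase gene of the microtubule affinity-regulating family. Its SPF-listed DMR (chr1:184958294-184959824, 226 kb from the Hlx start site) differed by -13.5 points in the GF libraries (SE 4.74, adjusted p 0.033). Its GF-listed DMR (chr1:184996969-184998630) differed by -12.9 points in the SPF libraries (SE 4.91, adjusted p 0.031). Both were lower in mLN like Hlx, and both differences were smaller than those of the Hlx DMRs.

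The regions whose 10 values were most like those of region 5 of Hlx belonged to other developmental transcription factors. By the mean absolute difference over the 10 libraries, the nearest 5 of the other merged regions were 2 at Shox2 (3.45 and 4.22 points), 1 each at Emx2 (3.57 points) and Tbx15 (3.66 points), and 1 at Meis1 and Gm16140 (4.39 points). For region 1 of the lincRNA they were at Eya1 (3.16 points), Gm5342 (3.39), Gm13206 (3.47), Tmem108 (3.62) and Mir802 (3.87), a set that mixes a transcriptional co-activator gene with predicted genes, a membrane protein gene and a microRNA gene.

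Hlx was 1 of 7 among 42 NKL class homeobox genes with a DMR in the location lists. The share of all genes with a DMR was not counted, and the gene list was written with earlier results of these data known, so this count shows no excess. In the SPF list these genes had 32 DMRs, of which 26 were listed as lower in mLN, and all 26 of these and 5 of the 6 listed as higher passed in the GF libraries, beside 92.8% and 86.5% of the whole list, of which 41.3% was listed as lower. Their median difference there was -42.7 points, against 16 over all 806 DMRs. The largest were at Emx2 (-72.4 and -71.5 points), region 3 of Hlx, and En1 (-68.7 points). Emx2, known from brain and urogenital development, held 13 of the 32 and En1, known from limb and midbrain patterning, held 9. In the GF list 23 of 25 lower and 6 of 6 higher DMRs passed in the SPF libraries (79.2% and 85.8% of the whole list, of which 53.3% was listed as lower), with a median of -33.6 points against -4.32 over all 1293.

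Genes of visceral mesenchyme and spleen development had DMRs in both directions, with passing shares to be read against the same whole-list shares. Of 25 such transcription factor genes, 14 had DMRs. This list too was written with earlier results of these data known, and the share over all genes was not counted, so the count shows no excess. In the SPF list 23 of 23 lower (whole list 92.8%) and 24 of 28 higher DMRs (86.5%) passed in the GF libraries, with a median of 12 points against 16 over the list. In the GF list 18 of 18 lower (79.2%) and 30 of 30 higher DMRs (85.8%) passed in the SPF libraries, with a median of 19.9 points against -4.32. The largest in the SPF list were regions 3 and 4 of Hlx and 2 DMRs of Meis1 (-62.3 and -60.3 points), and in the GF list the largest was at Prrx1 (67.8 points), which was higher in mLN.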

How the data were processed

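The samples were grouped by the titles in the labels. The authors checked read quality and adapters (FastQC 0.11.1 and cutadapt 1.4 per the labels, and trim_galore per the paper). They aligned reads to GRCm38 with BSMAP 2.4.3 and kept unique, paired and de-duplicated reads. They then smoothed methylation with bsseq and called DMRs for each pair of groups. They left out 1 mLN GF and 1 pLN GF replicate as outliers, which are not analysed here. No DMR in the authors' deposited tables had under 3 CpGs or a difference under 25 points. The deposited score and difference columns hold the authors' own comparisons, so only the sign of the difference was used, and its size for 1 alternative (0.35). The deposited CpG table gives the unsmoothed methylation fraction of each library. They were turned into percent, and the mean of the CpGs inside each DMR or merged region was taken (overlap of at least 1 bp).

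Read depth per CpG was not used, so no interval for counting error is given; a DMR of few CpGs is the least precise. All 1727 CpG positions of chromosome 1 carried C followed by G in GRCm38. Annotation was GENCODE M21, and sequences came from the RefSeq copy of GRCm38.p6. Tests used limma 3.58.1 in R 4.3.3 on the percent scale over each whole table, with Benjamini-Hochberg adjustment. The fits were tested on simulated data. The simulated starting means were held away from both ends of the scale, so levels as low as those of Hlx in mLN were not covered. The turn was placed between the adjacent CpGs that left the fewest CpGs against the direction of their side. The members and gene lists were chosen with earlier results of these data known. All member DMRs were named, with the CpGs next to the turn and those of largest and smallest node difference and largest housing difference per gene; CpGs 184725366 and 184727342 were added after their values were seen. Likeness was ranked over merged regions of other genes, and for the related lists up to 4 DMRs of largest size were named. Alternatives were the median over CpGs, complete CpGs, at least 5 CpGs, a difference of at least 0.35, merging up to 300 bp, a logit scale (offset 1 point), a running mean over 5 CpGs, a difference of at least 25 points, a replicate block and leaving out each library.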

Additional observations from a re-analysis of the deposited data

How the results depend on the processing

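All 6 SPF-listed and all 8 GF-listed DMRs passed in the libraries not used for their call under every alternative that kept them (4 and 6 DMRs at an authors' difference of at least 0.35, and 7 GF-listed DMRs with at least 5 CpGs), and no estimate of a called DMR changed sign. No region passed for housing or interaction and no member CpG for housing under any alternative run; on the logit scale 5 CpGs of the whole table passed for housing. Correlations of same-numbered deviations lay between -0.0333 and 0.0434, and not every library correlated best with its own number. With 2 libraries in a GF group the deviations mirror each other, so these correlations cannot decide whether replicate numbers pair the libraries. A replicate block left the counts at 6 and 8 for location and at 0 for housing and interaction. The count of CpGs separating the nodes stayed within 1.5 times of 223 (SPF list, 206 to 247) and 114 (GF list, 107 to 132), both genes together; for the GF-listed lincRNA DMRs alone it was 29 of 68, and 42 without mLN SPF replicate 3. The last CpG before the turn lay at -11640 bp from the Hlx start site. It moved to -11717 in GF libraries alone and to -11654 with a running mean, and leaving out single libraries gave -11717 to -11640; the cause was not tested. Where leaving out a GF library left 1 in its group, that library was assumed to vary like the others. Depth per CpG, 2 libraries per GF group and the lack of values outside DMRs limit how finely the turn and any housing effect can be read.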
